A study of Mus musculus with 4 samples.

Results

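The apelin receptor gene Aplnr and the genes of its ligands, Apln and Apela, were followed through 4 RNA sequencing libraries of mouse forelimb buds. These 3 genes were taken from the deposited table by their Ensembl identifiers, out of 35689 genes, and all 3 passed the filter on low values. They were chosen by their measured TPM in the knockout against control contrast, so their differences in that contrast are given as a description and without a test. Each library held the right and left forelimb of an individual embryo at E11.5. The knockout embryos were PrxCre/+;Smarcc1c/c, 1 with 40 somites (replicate 1) and 1 with 39 somites (replicate 2). The controls were Prx+/+;Smarcc1c/c, again 1 with 40 somites (replicate 1) and 1 with 39 somites (replicate 2), so that both genotypes carried the conditional Smarcc1 allele on both chromosomes and the Cre transgene was present in the knockouts alone. An effect of Cre itself cannot be told apart from that of the knockout. PrxCre is known for its activity in limb bud mesenchyme, while vessels, blood and ectoderm of the bud lie largely outside its domain. Smarcc1, which encodes the BAF155 subunit of the BAF chromatin remodelling complex, stood at 46.2 and 38.4 TPM in knockout buds against 112 and 119.6 TPM in control buds. Its log2 difference was -1.44 ± 0.13 (SE; limma, Benjamini-Hochberg adjusted p = 0.0117, and 0.111 with no filter on low genes). TPM is a level scaled for transcript length and for the library total. It keeps no record of the number of reads, so depth is unknown.

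The apelin receptor is a G protein-coupled receptor of the cell surface. It is known from endothelial cells and their precursors, and from mesoderm and endoderm cells that migrate during gastrulation. A pair of secreted peptides bind it: apelin, the product of Apln, which sprouting endothelial cells are known to make and which low oxygen can induce, and ELABELA or Toddler, the product of Apela, known from embryonic stem cells and the early embryo. Both are cut from short precursors, and the active peptides come from the carboxy-terminal end.

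The coding sequences of both ligands are shown because the gene that differed most, Apela, codes for one of these very short precursors. They were read from the GENCODE M21 transcripts on mm10, run from the start to the stop codon, and have in capitals the last 11 codons of Apela and the last 13 codons of Apln before the stop, which encode the shortest of the well known active peptides.
Apela: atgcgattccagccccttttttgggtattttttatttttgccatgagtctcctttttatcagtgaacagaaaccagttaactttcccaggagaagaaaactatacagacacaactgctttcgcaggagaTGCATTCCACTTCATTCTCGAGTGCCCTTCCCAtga
Apln: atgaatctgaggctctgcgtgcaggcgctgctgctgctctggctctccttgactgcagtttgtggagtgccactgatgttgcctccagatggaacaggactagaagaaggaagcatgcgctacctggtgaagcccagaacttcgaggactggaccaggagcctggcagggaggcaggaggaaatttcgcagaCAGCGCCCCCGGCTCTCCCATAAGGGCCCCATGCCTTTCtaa
The Apela precursor has 54 codons and the Apln precursor 77, against 377 codons for the receptor. Apela (ENSMUSG00000079042) lies on the minus strand of chromosome 8 from 65028417 to 65037336, and its coding part, spread over 2 exons, from 65035666 to 65036965. Apln (ENSMUSG00000037010) lies on the minus strand of chromosome X from 48025146 to 48034853. Aplnr (ENSMUSG00000044338) lies on the plus strand of chromosome 2 from 85136225 to 85139923, and the coding sequence of its full-length transcript lies in a single exon. GENCODE also places Gm45886, a non-coding transcript of the same strand, across most of the Apela gene. Gm45886 was not analysed here, and how reads of the overlap were assigned is not given in the sources used here.

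Apela RNA was several times more abundant in the knockout forelimbs. It stood at 36.5 TPM in the knockout with 40 somites and 56.1 TPM in the knockout with 39 somites. In the controls it stood at 7.91 TPM at 40 somites and 4.71 TPM at 39 somites. Both knockouts lay well above both controls, and the group means were 46.3 ± 13.9 and 6.31 ± 2.27 TPM (SD, n = 2 per genotype), a ratio of 7.34. On the log2(TPM + 1) scale the difference, knockout minus control, was 2.70 ± 0.28 (SE), which is the 12th highest among the 12809 genes tested. In the controls 31.7% and 20.99% of tested genes had a lower TPM than Apela, at 40 and 39 somites, and in the knockouts 70.2% and 78.8%. Apela thus went from the lower part of the range of expressed genes to the upper part.

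The size of the Apela difference was not the same at both stages. Knockout minus control was 2.07 at 40 somites and 3.32 at 39 somites on the log2 scale, each from 1 library against 1. Apela was higher at 39 than at 40 somites in the knockouts, by 0.61 on the log2 scale, and lower in the controls, by -0.64. In a model with genotype and somite stage the average difference between stages was -0.02 ± 0.30 (SE). With any 1 library left out, the log2 difference between genotypes stayed between 2.38 and 3.02.

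**Figure D1:**
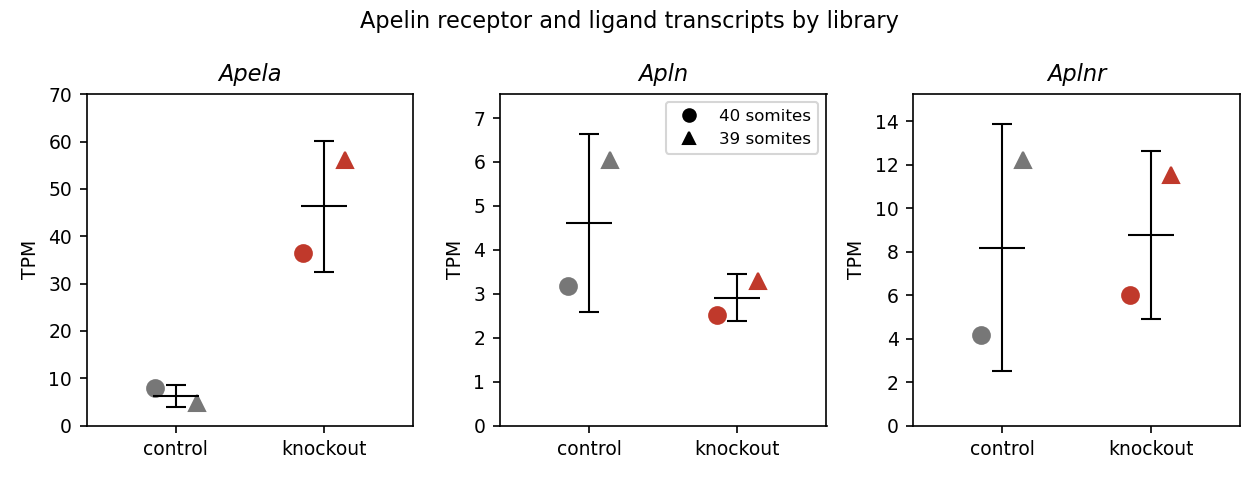
TPM of Apela, Apln and Aplnr in each library, by genotype (grey, control; red, knockout) and somite stage (circles, 40 somites; triangles, 39 somites), with the mean as a horizontal bar and the SD of 2 libraries as error bars. Apela is separated by genotype (36.5 and 56.1 against 7.91 and 4.71 TPM), while Aplnr is separated by stage (11.51 and 12.2 against 6.02 and 4.17 TPM).

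Apln, the other ligand, was a low-level transcript in all libraries and did not share the pattern of Apela. It stood at 2.53 and 3.29 TPM in knockout buds with 40 and 39 somites, against 3.19 and 6.05 TPM in control buds. The control with 39 somites was the highest of the 4, and the other 3 libraries lay close together, with the knockout at 39 somites just above the control at 40 somites. The groups therefore overlapped. The means were 2.91 ± 0.54 TPM in knockout buds and 4.62 ± 2.02 TPM in control buds (SD, n = 2 per genotype), and the log2 difference was -0.48 ± 0.27 (SE). Without that highest control library the log2 difference was -0.11. Apln is X-linked and sex coincided with stage: Ddx3y, on the Y chromosome, had 28.3 and 30.2 TPM in the 39-somite libraries and 0.0498 and 0.013 TPM in the 40-somite libraries, knockout first. The parts of sex and stage in the Apln values cannot be told apart.

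Because Apela was so much higher, the make-up of the ligand transcripts differed between genotypes. Apela made up 93.5% and 94.5% of the summed Apela and Apln TPM in knockout buds at 40 and 39 somites. In the controls it made up 71.3% at 40 somites and 43.8% at 39 somites. The summed ligand level was nearly equal in the controls, at 11.1 and 10.8 TPM, and 39.1 and 59.4 TPM in knockout buds. Per receptor transcript there were 6.06 and 4.88 Apela transcripts in the knockouts and 1.899 and 0.385 in the controls. In the control with 39 somites Aplnr was the most abundant of the 3 genes, followed by Apln and Apela. In the other 3 libraries the order was Apela, Aplnr and Apln. Over the controls the 3 means were 8.19 ± 5.70 TPM for Aplnr, 6.31 ± 2.27 for Apela and 4.62 ± 2.02 for Apln (SD, n = 2). The ranges of the genes overlapped there, while within every library Aplnr lay above Apln. Differences between the genes were not tested.

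**Figure D2:**
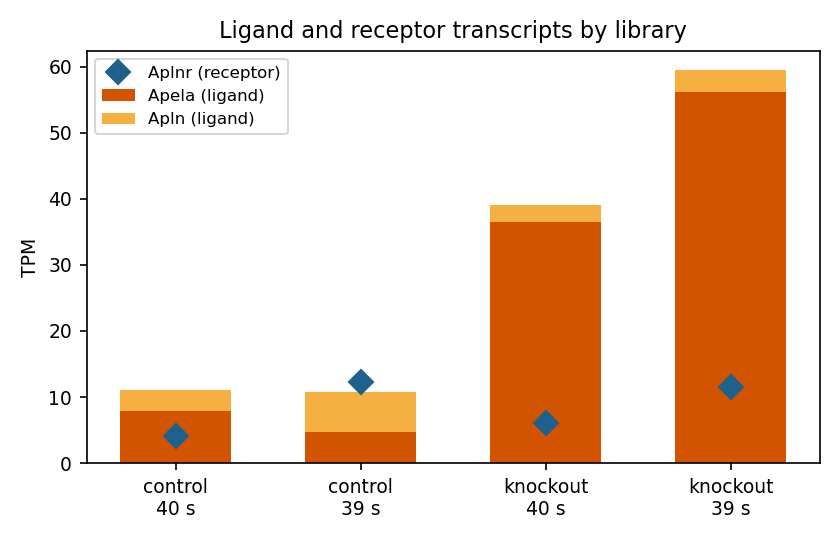
Stacked bars give the TPM of Apela and Apln in each library and diamonds the TPM of Aplnr; s stands for somites. The summed ligand level is 11.1 and 10.8 TPM in control buds and 39.1 and 59.4 TPM in knockout buds, and Apela makes up most of the knockout bars.

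Aplnr, the receptor, divided the libraries by somite stage and not by genotype. It stood at 6.02 TPM in the knockout and 4.17 TPM in the control with 40 somites. At 39 somites it stood at 11.51 TPM in the knockout and 12.2 TPM in the control. Both 39-somite libraries lay above both 40-somite libraries, and the genotypes overlapped. The means were 8.76 ± 3.88 TPM in knockout buds and 8.19 ± 5.70 TPM in control buds (SD, n = 2 per genotype). The log2 difference between genotypes was 0.18 ± 0.47 (SE). It was -0.50 without control replicate 1 and 0.86 without control replicate 2. Leaving out the knockout with 39 somites gave -0.24, and leaving out the one with 40 somites gave 0.60.

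Of the 3 genes, 1 (Apela) passed limma with Benjamini-Hochberg adjustment at 0.05 over all genes, where 1.3% of the 12809 genes passed and 0.812% passed as higher in the knockouts. Since this contrast chose the genes, nothing is read from that count. Apela was also the only 1 of the 3 without overlap between genotypes, as were 43.9% of all tested genes.

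The stage difference of Aplnr was not used in choosing the genes, but it was examined after the values had been seen. In a limma model with genotype and stage it was 1.09 ± 0.16 on the log2 scale, 39 minus 40 somites, with a 95% interval from 0.692 to 1.497, and was positive in both genotypes (0.83 in the knockouts and 1.36 in the controls). It ranked 32nd highest of the 12809 genes and missed the threshold (adjusted p = 0.150 in limma by Benjamini-Hochberg, n = 2 per stage), which 0.164% of tested genes passed. Across alternative settings the adjusted p lay between 0.0581 and 0.369. Sex coincided with stage, so that the stage difference is one of sex as well. Apln had a smaller difference in the same direction, 0.52 ± 0.16, and did not pass either (adjusted p = 0.190, limma with Benjamini-Hochberg adjustment).

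Endothelial genes followed the same division. All 20 of the tested endothelial markers were higher at 39 than at 40 somites in both genotypes, as were 53.6% of all tested genes, with a median stage difference of 0.64 on the log2 scale against 0.10 over all genes. None of the 20 passed for stage singly in limma. Surface ectoderm markers went the other way: 0 of 12 were higher at 39 somites in both genotypes, and their median stage difference was -0.60. The part of these cell types in the Aplnr values was not tested. Cdh5, which encodes VE-cadherin, the adhesion protein of endothelial junctions, stood at 6.34 and 12.3 TPM in knockout buds with 40 and 39 somites, against 5.51 and 13.7 TPM in control buds. Kdr, which encodes a VEGF receptor, stood at 7.50 and 11.2 TPM in knockout buds and at 4.57 and 10.5 TPM in control buds. Pecam1, an endothelial adhesion gene, stood at 14.1 and 18.3 TPM against 8.23 and 16.5 TPM. In each of these genes the control with 40 somites was the lowest library. The summed level of all 22 markers was 171.8 and 234.2 TPM in knockout buds and 133.6 and 241.0 TPM in control buds, and none of the 22 was listed at 0 in any library. In whole forelimb buds, fewer cells of a type and less RNA per cell cannot be told apart.

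Set against those markers, Aplnr was nearly the same in both genotypes. Its log2(TPM + 1) less the mean of the 20 endothelial markers was -0.02 in the knockout and -0.09 in the control at 40 somites, and 0.38 and 0.40 at 39 somites. Knockout minus control was therefore 0.07 at 40 somites and -0.02 at 39 somites, against 0.44 and -0.08 for Aplnr itself. The range over the 4 libraries was 0.49 after this subtraction and 1.36 before it. The part that remains rose above the endothelial mean in both 39-somite libraries. The same subtraction for Apln gave -1.01 and -1.16 in knockout buds with 40 and 39 somites. In control buds it gave -0.39 and -0.51. Set against those markers, Apln was thus lower in both knockouts than in both controls, which is a description without a test. Before the subtraction Apln overlapped between genotypes. The marker mean itself differed by 0.37 at 40 somites and -0.06 at 39 somites, knockout minus control. Of all tested genes 43.9% did not overlap without a subtraction, and the share after it was not computed.

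**Figure D3:**
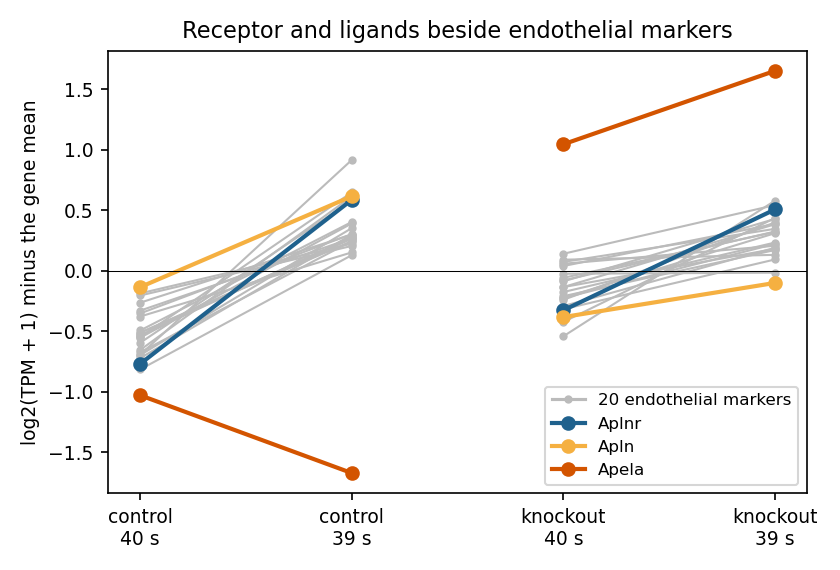
Each line gives log2(TPM + 1) of a gene minus its mean over the 4 libraries, for 20 endothelial markers (grey), Aplnr (blue), Apln (yellow) and Apela (orange), joining the libraries with 40 and 39 somites (s) within a genotype. Aplnr runs with the grey lines and is higher at 39 somites in both genotypes, while Apela is above its mean in the knockouts and below it in the controls.

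Between genotypes no endothelial marker passed. In limma 0 of 20 passed over all genes and 0 had an unadjusted p under 0.05, against 1.3% and 13.7% of all tested genes. Their median log2 difference was 0.12, against 0.01 over all genes. The median was 0.35 at 40 somites, where 19 of 20 were higher in the knockout, and -0.03 at 39 somites, where 9 of 20 were. Each stage is 1 library against 1. Over all 12809 tested genes, 6981 were higher in the knockout at 40 somites and 6222 at 39 somites. Sox18, an endothelial transcription factor gene, had the smallest p of the list, with 6.77 and 9.27 TPM in knockout buds and 3.01 and 6.71 TPM in control buds (log2 difference 0.69 ± 0.32, limma Benjamini-Hochberg adjusted p = 0.435). Without knockout replicate 1 it passed, at 0.89, the only endothelial marker to do so in any fit run. Esam and Icam2, junction and adhesion genes of endothelium, had log2 differences of 0.42 ± 0.33 and 0.22 ± 0.20.

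Among 14 tested genes of tip cells, arteries and veins, 1 passed as higher in the knockouts, as did 0.812% of all tested genes. Nrp2, a co-receptor for VEGF and semaphorins that limb mesenchyme as well as veins can express, rose from 67.8 and 87.3 TPM in control buds at 40 and 39 somites to 157.8 and 208.0 TPM in knockout buds (log2 difference 1.23 ± 0.18, limma Benjamini-Hochberg adjusted p = 0.0416). The call was lost with no filter, with quantile normalization, with no variance trend and when either control was left out. Unc5b, a netrin receptor gene of sprouting vessels, stood at 22.3 and 19.5 TPM in knockout buds and 32.1 and 38.3 TPM in control buds, and did not pass (adjusted p = 0.0850, limma with Benjamini-Hochberg adjustment). It passed without the knockout with 40 somites, with a robust variance and among protein-coding genes alone. Efnb2 and Nrp1, genes of arterial endothelium, had log2 differences of 0.41 ± 0.13 and -0.47 ± 0.19 and did not pass. The stage differences of Unc5b, Efnb2 and Nrp1 were 0.03, 0.15 and 0.33, against a median of 0.64 for the endothelial markers. Which cells of the bud made these RNAs was not tested. The median of the list was 0.14. Of 14 vascular growth factor genes 0 passed in limma, with 1 at an unadjusted p under 0.05, as were 13.7% of all tested genes. That gene was Angpt1, which encodes a ligand of the endothelial receptor TEK. Angpt1 stood at 1.39 and 1.59 TPM in knockout buds and 4.14 and 3.19 TPM in control buds, a log2 difference of -0.90 ± 0.18 (adjusted p = 0.0899). Angpt1 passed without either knockout and among protein-coding genes alone.

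The other genes of the apelin pathway comprised 25 genes: enzymes that cut or break down the peptides, G proteins and arrestins that act behind the receptor, receptors described as its partners, and genes placed upstream or downstream of it. Of these, 21 were tested, and in limma 0 passed over all genes, while 6 had an unadjusted p under 0.05 (3 higher, 3 lower), as did 13.7% of all tested genes. Their median log2 difference was 0.03 and their range -0.69 to 0.95. With somite stage in the model 4 passed, 2 higher and 2 lower, where 4.16% of all genes did. Those 4 were Agtr1a, Mme, Gnai1 and Gnai2. Of these, Agtr1a entered the tested set through its knockout values alone, so nothing is read from its place in these counts.

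Of the processing enzymes, Furin, the proprotein convertase able to cut the ELABELA precursor, stood at 13.7 and 15.3 TPM in knockout buds with 40 and 39 somites, against 13.9 and 16.0 TPM in control buds (log2 difference -0.04 ± 0.14, 95% interval -0.37 to 0.29). Mme, which encodes neprilysin, a peptidase that degrades apelin, stood at 23.6 and 20.8 TPM in knockout buds and at 13.6 and 14.3 TPM in control buds. Both knockouts lay above both controls, and the log2 difference was 0.63 ± 0.13 (limma, Benjamini-Hochberg adjusted p = 0.0943, and 0.0442 with stage in the model). Pcsk5, another convertase gene, stood at 4.21 and 3.86 TPM against 6.95 and 6.08 TPM (adjusted p = 0.165, limma with Benjamini-Hochberg adjustment). Pcsk1, also a convertase gene, was under 0.2 TPM in every library and was not tested.

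Of the genes for the receptor's partners and transducers, Gnai1 and Gnai2 encode inhibitory G protein alpha subunits of the class to which the apelin receptor couples. Gnai1 stood at 10.1 and 10.6 TPM in knockout buds and 16.7 and 18.0 TPM in control buds, with no overlap (log2 difference -0.69 ± 0.12, adjusted p = 0.0706 in limma with Benjamini-Hochberg adjustment, and 0.0299 with stage in the model). It passed in 4 of the alternatives run: with stage, with median-ratio scaling, with a robust variance and among protein-coding genes alone. Gnai2 stood at 84.5 and 105.6 TPM against 117.2 and 150.6 TPM (adjusted p = 0.283, and 0.0335 with stage, by the same test). Agtr1a, the gene of an angiotensin receptor reported to pair with the apelin receptor, stood at 2.13 and 2.67 TPM in knockout buds and 0.749 and 0.754 TPM in control buds (log2 difference 0.95 ± 0.17, adjusted p = 0.0732 in limma, and 0.0475 with stage). It also passed without the knockout with 40 somites, with no variance trend, with a robust variance and among protein-coding genes alone. Agtr1a reached the filter of 1 TPM only through the knockouts. Oprk1, an opioid receptor gene, was under 0.2 TPM throughout.

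**Figure D4:**
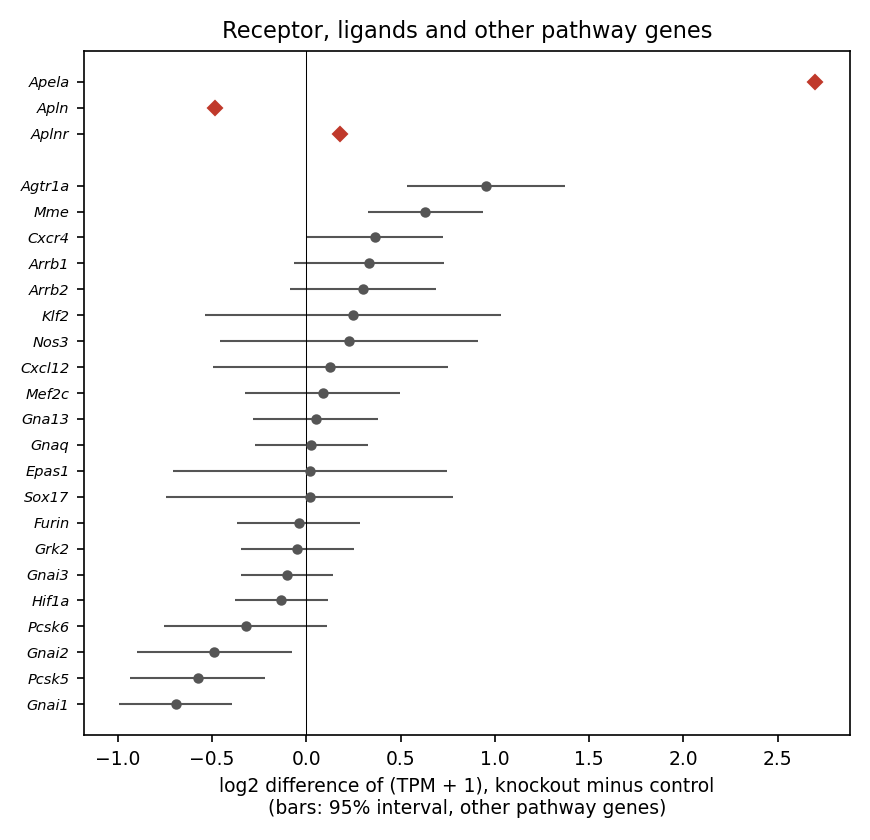
Log2 difference of (TPM + 1), knockout minus control, for the 3 apelin receptor and ligand genes (red diamonds) and for 21 other genes of the pathway (grey circles, with the 95% interval from limma). Apela lies at 2.70, outside the range of -0.69 to 0.95 of the other pathway genes. Apln lies at -0.48 and Aplnr at 0.18, within that range.

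Of the genes that act downstream of the receptor in endothelium, Klf2 and Nos3 were low and were higher at 39 somites in both genotypes. Klf2, a transcription factor gene induced by flow and by apelin signals, stood at 0.695 and 1.78 TPM in knockout buds with 40 and 39 somites and 0.451 and 1.31 TPM in control buds. Nos3, which encodes endothelial nitric oxide synthase, stood at 0.941 and 1.99 TPM against 0.720 and 1.46 TPM. Klf4, which was not tested, went the other way, at 0.641 and 0.613 TPM against 1.38 and 0.934 TPM. The chemokine gene Cxcl12 and its receptor gene Cxcr4, which also guide vessel growth, stood at 22.5 and 15.4 TPM against 13.5 and 21.3 TPM, and at 15.0 and 17.0 TPM against 10.99 and 13.4 TPM. Neither passed (limma, Benjamini-Hochberg adjusted p = 0.896 and 0.363).

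Low oxygen is a known inducer of Apln, and genes of that response were read beside it. Of 19 hypoxia response genes tested 0 passed in limma. An unadjusted p under 0.05 was found for 4, all of them lower, as were 6.89% of all tested genes. The median log2 difference was 0.04, and 12 of the 19 lay above 0. The part of low oxygen in the Apln values was not tested. Hif1a, the gene of the oxygen-regulated transcription factor, stood at 58.3 TPM in both knockouts and 65.3 and 62.8 TPM in control buds. The 2 genes with the smallest p, the hexokinase gene Hk2 and the collagen prolyl hydroxylase gene P4ha2, had log2 differences of -0.54 ± 0.13 and -0.48 ± 0.12 (adjusted p = 0.143 and 0.162, limma with Benjamini-Hochberg adjustment).

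Apela is known from stem cells and the gastrulating embryo, and 20 genes of those stages were read beside it. Of these 5 were expressed highly enough to be tested, and 2 rose, while 4 were higher at an unadjusted p under 0.05. Over all tested genes 0.812% passed as higher and 6.78% were higher at that unadjusted p. Lin28b, an RNA-binding regulator of developmental timing, rose from 17.5 and 19.1 TPM in control buds with 40 and 39 somites to 43.5 and 58.1 TPM in knockout buds (log2 difference 1.41 ± 0.16, adjusted p = 0.0218, limma with Benjamini-Hochberg adjustment). T, the Brachyury gene of the primitive streak, rose from 2.69 and 3.06 TPM to 32.3 and 14.2 TPM, with an adjusted p of 0.0351 by the same test. Unlike Apela, T was higher in the knockout with 40 somites than in the one with 39. Lin28a and Gsc stood at 7.95 and 10.7 TPM against 6.16 and 5.62 TPM, and at 2.05 and 2.27 TPM against 0.881 and 1.18 TPM, and did not pass (adjusted p = 0.227 and 0.181). Of the 20 genes 9 were listed at 0 in at least 1 library, among them Pou5f1, Mixl1, Eomes and Mesp1, and 15 of the 20 were too low to be tested. That T and Lin28b rise was known when the list was drawn up, and the list is no independent evidence. The call for T ended in the fits named in the closing part, and that for Lin28b with no filter and without either control.

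Markers of other cell types gave the following values beside Apela. Over all tested genes 0.812% passed as higher and 0.492% as lower. An unadjusted p under 0.05 was found for 13.7% of them, 6.78% higher and 6.89% lower. Of 10 limb mesenchyme markers 1 rose and 1 fell: Pdgfra, a growth factor receptor gene, stood at 161.8 and 173.4 TPM in knockout buds against 79.5 and 84.0 TPM in control buds, and Lhx9, a LIM homeobox gene, at 32.4 and 33.2 TPM against 68.8 and 105.1 TPM (adjusted p = 0.0165 and 0.0416, limma with Benjamini-Hochberg adjustment). Both calls were lost with no filter and without the control with 39 somites, that for Pdgfra also without the other control, and that for Lhx9 also with quantile normalization and with no variance trend. Prrx1, whose regulatory sequence drives the Cre, stood at 129.9 and 139.8 TPM against 188.2 and 201.1 TPM (adjusted p = 0.102, and 0.0293 with stage in the model). All 12 surface ectoderm markers lay below 0, with a median of -0.43, and 0 passed in limma, with 4 at an unadjusted p under 0.05, while 3 passed as lower with stage in the model, as did 2.08% of all tested genes. Their summed level was 498.8 and 315.7 TPM in knockout buds and 635.7 and 417.1 TPM in control buds. Of 8 macrophage, 8 erythroid, 6 myoblast, 7 perivascular and 5 neural and Schwann markers tested, 0 passed in limma, with 1, 1, 1, 1 and 0 at an unadjusted p under 0.05 and median log2 differences of -0.38, 0.25, 0.35, -0.17 and -0.17. In the same order 0, 7, 6, 3 and 0 of them lay above 0, as did 51.8% of all tested genes. A shared sign was thus not particular to the ectoderm markers. The part of these cell types in the Apela difference was not tested.

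Genes near Apela on chromosome 8 did not rise with it as a block. The 3 nearest tested genes on each side lie between 81.2 and 1832 kb away, and 0 of the 6 passed in limma. Distances in this paragraph run between the lowest coordinates of the genes, whatever their strand. Tmem192, the nearest, stood between 10.3 and 12.6 TPM in all 4 libraries, a log2 difference of 0.04 ± 0.15. Npy1r, a neuropeptide Y receptor gene 1669 kb away, was the exception in level, at 1.03 and 1.02 TPM against 0.164 and 0.165 TPM, with a log2 difference of 0.80 ± 0.17 (adjusted p = 0.110, limma with Benjamini-Hochberg adjustment). It too reached the filter only through the knockouts. Of the 6 neighbours each of Apln and Aplnr 0 passed. Ocrl, 112.8 kb from Apln, and Tnks1bp1, 88.2 kb from Aplnr, had log2 differences of 0.29 ± 0.13 and -0.62 ± 0.13, and with stage in the model Tnks1bp1 passed (adjusted p = 0.0369).

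The 250 bases before the annotated start of Apela are shown because its RNA differed most between genotypes. CG dinucleotides are in capitals. They are from RefSeq on GRCm38.p6, chr8:65037337-65037586, minus strand, written 5′ to 3′ along the gene.
Apela upstream: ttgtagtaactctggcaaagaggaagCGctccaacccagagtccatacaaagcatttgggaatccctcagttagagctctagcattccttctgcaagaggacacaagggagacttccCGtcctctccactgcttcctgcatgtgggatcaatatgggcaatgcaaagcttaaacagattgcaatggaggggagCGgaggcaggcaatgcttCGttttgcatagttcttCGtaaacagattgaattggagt
The window has 5 CG dinucleotides and a GC content of 48%, against 12 and 65.2% in the same window of Apln and medians of 6 and 52.4% over 32851 RefSeq windows of this length. Neither window held, on either strand, the GLI motif GACCACCCA (found in 0.225% of all windows), the T-box motif TCACACCT (1.12%), the TATA box letters TATAAA (12.4%) or the letters ACGTG or GCGTG of the hypoxia element (38.6%). This says only that these letters are not in the windows.

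The genes most like each of the 3 across the 4 libraries were taken as those with the smallest distance between log2(TPM + 1) values centred on their means. Most like Aplnr were Gja4, a connexin gene of arterial endothelium (distance 0.18), Cdh5 (0.21) and B830017H08Rik (0.24). Gja4 stood at 3.43 and 5.89 TPM in knockout buds with 40 and 39 somites and 2.15 and 6.26 TPM in control buds, and B830017H08Rik at 1.33 and 2.51 TPM against 0.806 and 3.33 TPM. Most like Apela were Gm5417 (0.53), a processed pseudogene whose reads may belong to a parent copy, the cell-surface protein gene Thy1 (0.54) and Skor1, which encodes a transcriptional corepressor (0.59). Thy1 stood at 5.59 and 7.01 TPM in knockout buds and 0.637 and 0.356 TPM in control buds. Skor1 stood at 4.66 and 5.13 TPM and Gm5417 at 4.11 and 8.88 TPM in knockout buds, and both were listed at 0 in both controls. Thy1, Skor1 and Gm5417 reached the filter of 1 TPM only through the knockouts. Most like Apln were the matrix gene Emilin2 (0.05), Serpinf1 (0.10), which encodes the anti-angiogenic factor PEDF, and the leukocyte gene Laptm5 (0.11), each with its highest value in the control with 39 somites. With 4 libraries such likeness is a description only.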

How the data were processed

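RNA was measured in 4 forelimb libraries, 2 per genotype, sequenced on a DNBseq instrument per the labels. The values deposited by the authors are TPM, for 35727 Ensembl identifiers in 4 columns. Salmon 1.9.0 and the mm10 build are listed in the submitters' processing notes. The transcript set is not given in the sources used here. Identifiers matched GENCODE M21 symbols for 35422 (99.1%), and 38 symbols found more than once were summed. Read depth is unknown, and the spread between embryos sets the precision.

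The 12809 genes that reached 1 TPM in 2 or more libraries entered limma 3.58.1 (R 4.3.3) as log2(TPM + 1) (eBayes with a trend), without covariates. Benjamini-Hochberg adjustment ran over all 12809 genes at 0.05, and 167 passed, 104 higher and 63 lower. Fold changes on this scale understate those of low genes. The fit was tested on simulated data, where it called 1.8% of log2 changes of 0.5, 55% of changes of 1 and 96.6% of changes of 2. A list with 0 genes passing can therefore still hold changes of about 0.5. Alternatives were pseudocounts of 0.1 and 5, no filter and a filter at 5 TPM, median-ratio scaling, quantile normalization, stage as a block, variance settings, protein-coding genes alone and each library left out. Stage, 40 or 39 somites in the labels, pairs the libraries across genotypes. Same-stage libraries deviated together from their genotype means, with a Pearson correlation of 0.25 and a Spearman correlation of 0.364 over genes, which are no independent replicates. Since sex coincided with stage, the 2 cannot be told apart in these correlations or in the stage block.

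The members, the gene lists and the motifs were chosen with earlier results of these data known. Named were the 3 members, genes of the pathway list, up to 4 genes with the smallest p in each other list, defining markers, neighbours, and the 3 nearest genes by profile. Smarcc1, Ddx3y and the early-embryo genes listed at 0 were named outside this rule, and the stage comparison was made, after the values were seen.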

Additional observations from a re-analysis of the deposited data

Results flagged for a closer look

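For 7 of the named genes the difference between knockout and control had opposite signs at the 2 somite stages, each from 1 library against 1, so that the difference between stages was not tested. Such opposite signs were common: 30.8% of all 12809 tested genes, 12 of 20 endothelial markers and 7 of 21 pathway genes had them. For Aplnr the log2 difference was 0.44 at 40 somites and -0.08 at 39 somites, a gap of 0.52. The gap was 0.32 for Cdh5, 0.49 for Icam2, 0.57 for Gja4 and 0.67 for B830017H08Rik, all positive at 40 somites and negative at 39. It was 1.14 for Cxcl12 (0.70 and -0.44) and 0.33 for Tmem192.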

How the results depend on the processing

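The log2 difference of Apela was 2.17 with a pseudocount of 5, 2.87 with a pseudocount of 0.1, and 2.38 to 3.02 with a library left out. Apln lay between -0.86 and -0.11 over the fits run. Aplnr lay between -0.50 and 0.86, and its sign depended on the library left out. With 2 libraries per genotype, leaving 1 out cannot move a difference by more than the spread between replicates. The filters, the stage block, the variance settings and the protein-coding set leave these differences unchanged by construction. Such fits are therefore no test of their stability. Apln was not tested with the filter at 5 TPM. The number of genes passing was 0 with no filter, 533 with the stage block, 275 with a robust variance, 295 among protein-coding genes and 50 to 646 with a library left out, and the cause was not tested. Of the pathway genes 4 passed with the stage block, 2 with a robust variance, 2 among protein-coding genes, 1 with median-ratio scaling, 1 without the variance trend and 0 to 1 with a library left out. Of the endothelial markers 0 to 1 passed with a library left out, and 0 with the stage block. The call for T ended with no filter, under both scalings, at a pseudocount of 5, with a robust variance and without either control. At a pseudocount of 5 the signs of Cdh5 (-0.001) and B830017H08Rik (-0.012) turned. With a library left out the following ranges crossed 0: Furin (-0.13 to 0.052), Cxcl12 (-0.18 to 0.44), Nos3 (-0.084 to 0.54), Klf2 (-0.11 to 0.60), Cdh5 (-0.57 to 0.60), Pecam1 (-0.032 to 0.89), Kdr (-0.18 to 0.87), Esam (-0.09 to 0.93), Icam2 (-0.04 to 0.49), Tmem192 (-0.10 to 0.18), Gja4 (-0.40 to 0.81) and B830017H08Rik (-0.60 to 0.66). The stage difference of Aplnr lay between 0.75 and 1.23 and did not pass. With a library left out it has no test, since no residual degree of freedom remains.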
